A study of Rattus norvegicus with 12 samples.

Results

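Synovium of rats with collagen-induced arthritis was compared with synovium of normal rats. The comparison rests on the 8 arrays whose titles name the CIA or the Control group, out of 12 samples in all. The synovium is the membrane that lines a joint. In collagen-induced arthritis, animals immunised with type II collagen develop inflammation of the joints, and the membrane thickens, takes up leukocytes and erodes the neighbouring cartilage and bone. The model is widely used for rheumatoid arthritis, in which the same tissue is the seat of the disease.

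Per the labels, Control stood for normal male rats and CIA for male rats with collagen-induced arthritis, with 4 samples in each group. Total RNA was taken from synovial tissue. Ribosomal RNA was removed, and random primers were used to label the remaining RNA with Cy3, so that signal does not depend on the 3′ end of a transcript. The labels give no strain, age or time after immunisation, and do not say whether tissue of several rats was pooled. The p-values thus rest on the spread among these 8 samples alone. In whole tissue, fewer cells of a type and less RNA per cell cannot be told apart. All Control arrays shared 1 slide and scan and all CIA arrays another. The slide and the disease therefore cannot be told apart anywhere below.

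Each array held 38804 probes, designed for messenger RNA and long non-coding RNA. The CIA arrays were brighter: the 75th percentile of probe intensity was 106 ± 12.1 in CIA and 64.2 ± 6.92 in Control (SD, n = 4 each), a ratio of 1.66, with no overlap (two-sided exact permutation test, p = 0.0286, the smallest this design can give). Probes well above background made up 75.8% ± 6.54 of an array in CIA and 73.8% ± 5.98 in Control (p = 0.629 by the same exact test). Levels are therefore given as log2 intensity minus the array's own 75th percentile, and every difference is relative to that percentile. The manufacturer's 10 E1A control probes, scaled in the same way, had a median difference of -0.24 and were lower in CIA at 9 of 10. They ran from -0.89 to 0.41, and both ends came from dim probes. The brightest, E1A_r60_3 and E1A_r60_a22, stood at -0.02 and -0.01. Correlations between arrays over the 23860 probes that every array measured well above background ran from 0.948 to 0.989 between the groups, from 0.947 to 0.988 within CIA and from 0.980 to 0.995 within Control. On the first principal component, which held 47.7% of the variance, the groups overlapped.

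The tissue label could not be checked against its markers. Of 11 marker lists with 56 genes for synovial fibroblasts, macrophages, neutrophils, lymphocytes and other cells a joint sample can hold, 1 had a member among the probes that carry a gene name here, and that was the nerve and glia list. Names could be given to 30 probes, each a catalogue probe printed in 10 spots whose accession matched RefSeq's annotation of rat assembly GRCr8. The remaining 38774 probes, among them the other catalogue probes of the 50 on the array, could not be given a gene name from the sources used here.

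Of the 30 named genes, 16 were well above background on all 4 arrays of at least 1 group and were tested. A probe in several spots counted so on an array where at least as many of its spots were well above background as were not. A probe was called where limma's test, adjusted by Benjamini and Hochberg over all 26713 tested probes, gave p under 0.05. By that rule 1 named gene rose in arthritic synovium and 5 fell, or 37.5% of the 16, where 12.8% of all tested probes were called. Each value of a named gene is a mean over 10 spots, whereas most probes had 1 spot, and the part of this in the share called was not tested. The median difference of the 16 was -0.04, beside -0.06 for all tested probes. The gene that rose was Pdk3. The genes that fell were Dlg4, Map2, Eif4b, Odf2l and Slc28a2.

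Pyruvate dehydrogenase kinases switch off the enzyme complex that feeds pyruvate into mitochondrial oxidation, and Pdk3 encodes one of them. Its gene lies at X:62480535-62547371 of GRCr8. Its levels were -2.54, -2.53, -2.67 and -2.59 on Control replicates 1 to 4 and -1.99, -1.68, -2.32 and -1.97 on CIA replicates 1 to 4. The CIA samples lay higher without overlap, CIA replicate 3 nearest to Control and CIA replicate 2 farthest from it. The difference was 0.59 ± 0.13 on the log2 scale (SE, n = 4 in each group), 1.51-fold. Its 95% interval was 0.29 to 0.89, with an adjusted p of 0.0271 in the limma fit. The difference was -0.07 (limma adjusted p = 0.212) when the background was corrected by normexp with an added offset of 50. That offset is larger than the gene's mean intensity before scaling, 10.8 in Control and 27.5 in CIA. The part of the offset in the change of sign was not tested. With 1 array left out the limma call held without CIA replicate 2 or CIA replicate 3, and was lost without each of the Control replicates, CIA replicate 1 or CIA replicate 4 (adjusted p 0.0519 to 0.0778), while the difference stayed between 0.49 and 0.70.

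As the only named gene that rose, Pdk3 is shown with the sequence before its start, from RefSeq on GRCr8, chrX:62547372-62547621, minus strand, 5′ to 3′. Capitals mark the only match, on either strand, to ACGTG, a form of the core that hypoxia-inducible factors read. Other forms of that core were not searched for and are not marked.

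Pdk3: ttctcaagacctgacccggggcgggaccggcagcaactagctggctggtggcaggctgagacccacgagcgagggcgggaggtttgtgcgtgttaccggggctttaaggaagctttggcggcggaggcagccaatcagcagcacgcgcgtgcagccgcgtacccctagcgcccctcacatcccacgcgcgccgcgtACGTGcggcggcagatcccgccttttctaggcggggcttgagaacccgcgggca

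These 250 bases have a GC content of 68%, at percentile 89.1 of the 33469 rat promoters of the same length, and hold 28 CpG pairs, where the median promoter holds 5. The ACGTG match lies 54 bases before the start, and 16.6% of the promoters hold these letters on one strand or the other. The letters TATAAA, in 12.9% of promoters, and TGANTCA, the AP-1 sequence, in 6.34%, are not in this window on either strand. A match of letters is a description of the sequence only.

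Ldha, the lactate dehydrogenase subunit that takes pyruvate to lactate, was the other gene of the list on glycolysis and pyruvate that carries a name here. Its 1 catalogue probe was not well above background on any of the 8 arrays. Whether that probe reports the transcript was not tested, so this does not show Ldha to be absent from the tissue. The list of 16 genes thus gave 1 tested member, Pdk3, which passed.

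Map2 and Dlg4, both known from neurons, fell. They were the 2 measured members of the 6 in the nerve and glia list, with a median difference of -0.44 beside -0.06 for all tested probes. Ppp2r2b, a further gene known from neurons that is not on the list, did not fall (0.02 ± 0.09, limma adjusted p = 0.908). Dlg4 encodes PSD-95, a scaffold of excitatory synapses, and its gene lies at 10:55239397-55267780. Dlg4 stood at -1.09, -1.02, -1.05 and -1.04 on Control replicates 1 to 4 and at -1.40, -1.38, -1.48 and -1.54 on CIA replicates 1 to 4. Every CIA sample lay below every Control sample, and the Control samples were close together. The fall was -0.40 ± 0.07 (limma adjusted p = 0.0164), and the call was lost without Control replicate 4 (-0.40, adjusted p = 0.0598) and with each array's median in place of its 75th percentile (-0.29, adjusted p = 0.0854).

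Map2 encodes a protein that stabilises microtubules in dendrites, and its gene lies at 9:75173038-75431606. Its levels on Control replicates 1 to 4 were -0.80, -0.89, -1.05 and -0.96, and on CIA replicates 1 to 4 they were -1.44, -1.14, -1.61 and -1.41. The groups did not overlap, and CIA replicate 2 came nearest to Control. The fall was -0.48 ± 0.11 (limma adjusted p = 0.0322). It kept the call without CIA replicate 2 and lost it without each of the other 7 arrays (adjusted p 0.0529 to 0.0842), and also with quantile normalization (0.0509) and median scaling (0.122).

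Odf2l, a gene related to a centrosome and sperm tail protein, is at 2:236696158-236733090. It stood at -1.95, -2.28, -2.18 and -2.05 on Control replicates 1 to 4 and at -2.67, -2.76, -2.70 and -2.53 on CIA replicates 1 to 4. The gap between the lowest Control and the highest CIA sample was wider than the range within CIA. The fall was -0.55 ± 0.10 (limma adjusted p = 0.0162), and the call was lost without Control replicate 4 (-0.53, adjusted p = 0.0586) and with normexp followed by quantile normalization, a setting added after seeing the data (-0.08, adjusted p = 0.124).

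Slc28a2 transports purine nucleosides into cells together with sodium, and its gene lies at 3:129778425-129841292. It had the widest spread within Control among the called genes, at -1.71, -2.001, -1.03 and -1.47, with -2.35, -2.18, -2.31 and -2.12 on CIA replicates 1 to 4. The CIA samples were all lower, Control replicate 2 lying just above them and Control replicate 3 far above. The fall was -0.69 ± 0.19 (limma adjusted p = 0.0489). Without Control replicate 2 it was -0.84 (adjusted p = 0.0408), and without each of the other 7 arrays the call was lost (adjusted p 0.0666 to 0.123), with -0.52 without Control replicate 3. Quantile normalization (0.0661), median scaling (0.0739) and outlier spots kept in the mean (0.0519) also ended it.

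Eif4b, a translation initiation factor that aids the unwinding of messenger RNA at the ribosome, is at 7:135085259-135107054. Its levels were -2.99, -2.87, -2.73 and -2.67 on Control replicates 1 to 4 and -3.17, -3.42, -3.70 and -3.15 on CIA replicates 1 to 4. The groups did not overlap, but the probe was near background, well above it on 3 of the 4 CIA arrays. The fall was -0.54 ± 0.14 (limma adjusted p = 0.0400). The call held without CIA replicate 4 and was lost without each of the other 7 arrays (adjusted p 0.0526 to 0.112), with quantile normalization (-0.36, 0.0633), with median scaling (0.0830), with outlier spots kept (0.0561) and with a variance trend on intensity (0.0560).

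All 5 falls are relative to the brighter CIA arrays. Before scaling, mean intensity was higher in CIA for each of the 16 tested genes. For Dlg4 it was 31.0 in Control and 39.0 in CIA, for Map2 34.1 and 41.0, for Odf2l 14.9 and 16.8, for Slc28a2 22.1 and 22.6, and for Eif4b 9.11 and 10.6. Pdk3 went from 10.8 to 27.5. A fall here therefore means a smaller gain in brightness than the array's 75th percentile showed. Normexp followed by quantile normalization also ended the limma calls of Map2 (-0.16, adjusted p = 0.0640), Slc28a2 (-0.16, 0.152) and Eif4b (-0.05, 0.305). Testing with no filter on dim probes ended those of Pdk3 (adjusted p = 0.0506), Map2 (0.0603), Eif4b (0.0695) and Slc28a2 (0.0789) at the same sizes.

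**Figure D1:**
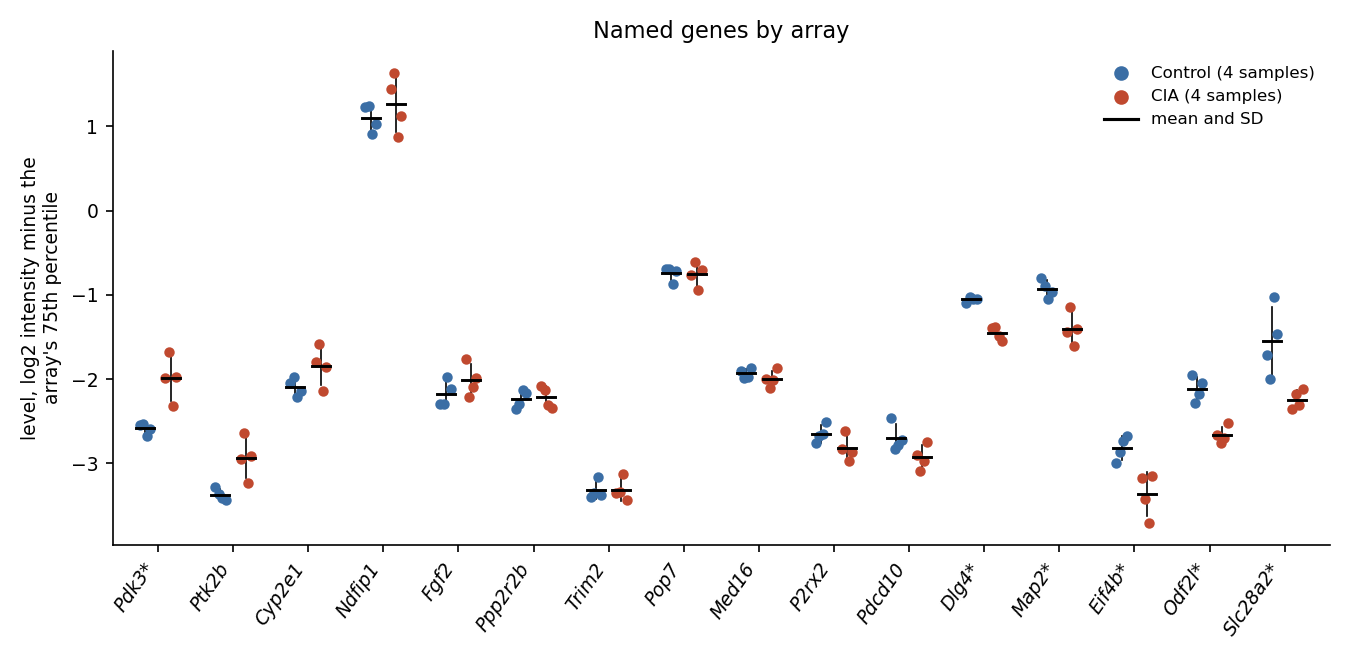
Level of each tested named gene on each array, as log2 intensity minus the array's 75th percentile, with Control samples in blue and CIA samples in red. Bars give the mean and SD of 4 samples, and an asterisk marks the 6 genes called. The groups are apart for Pdk3, whose rise turns to -0.07 under the normexp correction, and for Ptk2b, Dlg4, Map2, Eif4b, Odf2l and Slc28a2.

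Ptk2b, which encodes the calcium-responsive tyrosine kinase Pyk2, was the one named gene whose groups did not overlap and that was not called. It stood at -3.28, -3.37, -3.41 and -3.43 on Control replicates 1 to 4 and at -2.95, -2.64, -3.23 and -2.92 on CIA replicates 1 to 4. The CIA samples were higher, with CIA replicate 3 again nearest to Control, and 2 of the 4 Control arrays measured the probe well above background. The difference was 0.44 ± 0.12 (limma adjusted p = 0.0524). It passed with quantile normalization (0.64, adjusted p = 0.0289) and without CIA replicate 3 (0.53, adjusted p = 0.0318), as it did in 3 other settings (adjusted p 0.0124 to 0.0339), and had the opposite sign under the normexp correction (-0.21, adjusted p = 0.00866). In all, the groups of 7 of the 16 genes did not overlap, where 22.3% of all tested probes had no overlap (6.24% with CIA higher and 16.1% with CIA lower). CIA was the higher group in 2 of the 7 and the lower in 5.

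Fgf2 and Pdcd10 belong with Ptk2b to the list on vessels and growth factors, of which 3 of 14 genes were tested, 0 were called and the median difference was 0.16. Fgf2, the basic fibroblast growth factor, differed by 0.16 ± 0.12 (limma adjusted p = 0.386, 95% interval -0.12 to 0.44), and by -0.16 under the normexp correction (0.0669). It ran from -2.30 to -1.98 in Control and from -2.21 to -1.76 in CIA, so the groups overlapped. Pdcd10, a gene of cerebral cavernous malformation, differed by -0.23 ± 0.11 (adjusted p = 0.197, interval -0.48 to 0.03), with overlap between the groups. Under the normexp correction Pdcd10 was called lower (-0.31, limma adjusted p = 0.0076). No array measured Gdnf, a neurotrophic factor of the same list, well above background.

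The other 7 tested genes had overlapping groups and did not pass in the main fit. Cyp2e1, a cytochrome P450 that oxidises ethanol, differed by 0.25 ± 0.12 (limma adjusted p = 0.200), and the ATP-gated channel gene P2rx2 by -0.17 ± 0.10 (adjusted p = 0.270). Ndfip1, an adaptor of ubiquitin ligases and the one tested named gene with a level above its arrays' 75th percentile, differed by 0.17 ± 0.17, with an interval of -0.22 to 0.55 that allows a change in either direction. Med16, of the Mediator complex, differed by -0.07 ± 0.08, with an interval of -0.24 to 0.11. Differences close to 0 were measured for Ppp2r2b, a regulatory subunit of protein phosphatase 2A (0.02 ± 0.09), Trim2, a ubiquitin ligase (0.0095 ± 0.095), and Pop7, a subunit of ribonuclease P (-0.010 ± 0.092). The intervals of these 3 genes reached at most 0.23 on the log2 scale in either direction. The normexp correction, which called 49.1% of all tested probes, called several of these genes lower. They were Cyp2e1 (-0.12, limma adjusted p = 0.0385), P2rx2 (-0.27, 0.00626), Med16 (-0.23, 0.0112), Ppp2r2b (-0.21, 0.0105) and Trim2 (-0.29, 0.0108). Ndfip1 (0.23, 0.193) and Pop7 (-0.07, 0.162) were not called by it.

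Within CIA, the samples kept an order over several of these genes. CIA replicate 2 was the highest and CIA replicate 3 the lowest of the 4 in 7 of the 16 genes, which were Pdk3, Ptk2b, Cyp2e1, Ndfip1, Pop7, P2rx2 and Map2. In these 7 the same 2 samples thus set the range, whichever way the groups differed. CIA replicate 2 also had the highest 75th percentile of intensity, 118, and CIA replicate 3 the lowest, 91.1.

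The 14 other named genes did not reach the level needed for a test. Mex3c, which encodes an RNA-binding ubiquitin ligase, was well above background on 2 CIA arrays and no Control array. The other 13 were not well above background on any array. Among them were Nlrp3, the inflammasome sensor and the one named member of the list on NF-kB and the inflammasome, Cdh2, the N-cadherin of mesenchymal and neural cells, Enpp1, which makes pyrophosphate from ATP, and Pld1, a phospholipase. Cse1l, Lhcgr, Magoh, Napepld, Nat1, Ndfip2 and the non-coding LOC108352165 made up the rest, with Gdnf and Ldha. No statement can be made for these genes on a change, or on whether their transcripts were present.

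Over all tested probes, 3429 of 26713 were called, 12.8%. Of these 914 were higher in CIA (3.42% of the tested probes) and 2515 lower (9.41%). At an unadjusted p under 0.05 there were 8564. The groups did not overlap at 5965 probes, 22.3%, and 3321 probes were both called and without overlap. Differences were mostly small: the median size was 0.63 on the log2 scale among higher calls and 0.51 among lower calls.

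The excess of lower calls depended on the scaling. Higher calls made up 26.7% of all calls with the 75th percentile, 38.2% with quantile normalization (1240 higher, 2010 lower), 58.0% with each array's median (1019 higher, 738 lower) and 16.4% after the normexp correction (2159 higher, 10967 lower). The median difference over all probes was -0.06 with the 75th percentile and 0.05 with the median, a shift of the zero line that leaves the order of the probes as it was. Relative to the median probe, Pdk3 stood at 0.65, Dlg4 at -0.34, Map2 at -0.42, Eif4b at -0.49, Odf2l at -0.49 and Slc28a2 at -0.63. Before any scaling 25889 of the 26713 probes were brighter in CIA. All 914 higher calls were among them, and so were 2076 of the 2515 lower calls, which leaves 439 that were also dimmer in plain intensity.

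**Figure D2:**
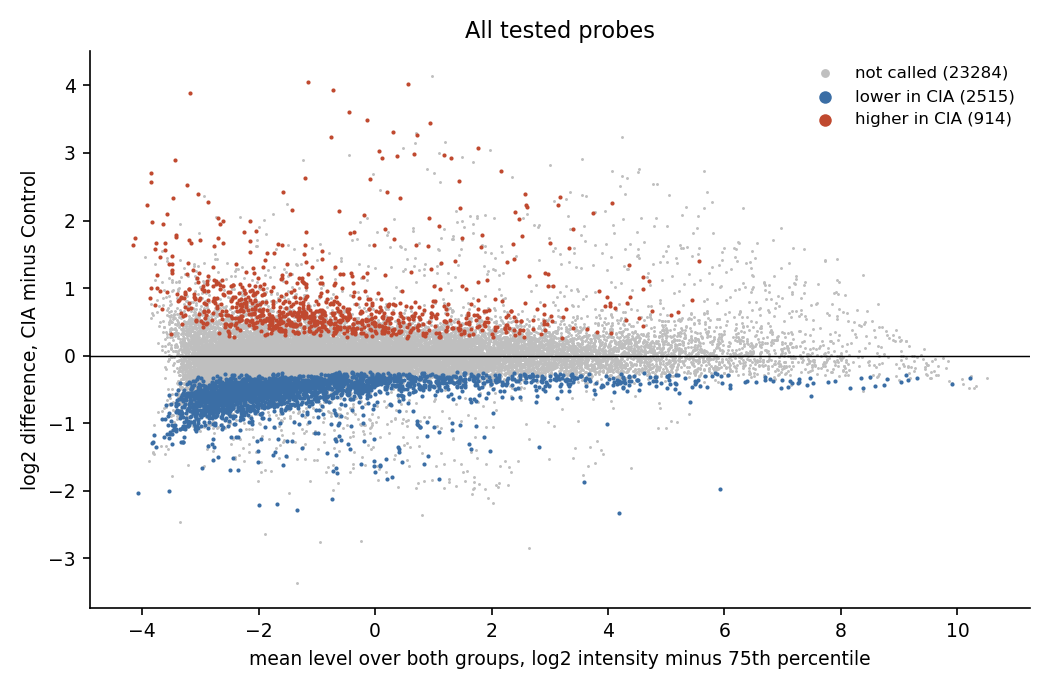
Difference between the group means on the log2 scale against the mean level of each tested probe, relative to the arrays' 75th percentile. Red points are the 914 higher calls, blue points the 2515 lower calls and grey points the probes not called. The lower calls form a dense band close to the axis, and the largest differences lie above it.

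The median difference moved with the brightness of a probe, and in a way that the scaling set. With the probes split by mean level into 10 classes of equal size, it ran from -0.17 in the dimmest class, with 98 higher and 356 lower calls, to 0.03 in the brightest, with 31 higher and 143 lower calls. With quantile normalization the ends were 0.0089 and -0.10, with median scaling -0.06 and 0.14, and with normexp -0.29 and 0.27. Under normexp the dimmest class had 1 higher and 2394 lower calls, and the brightest had 528 higher and 25 lower. The authors' value table gave a course like that of the quantile normalization.

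**Figure D3:**
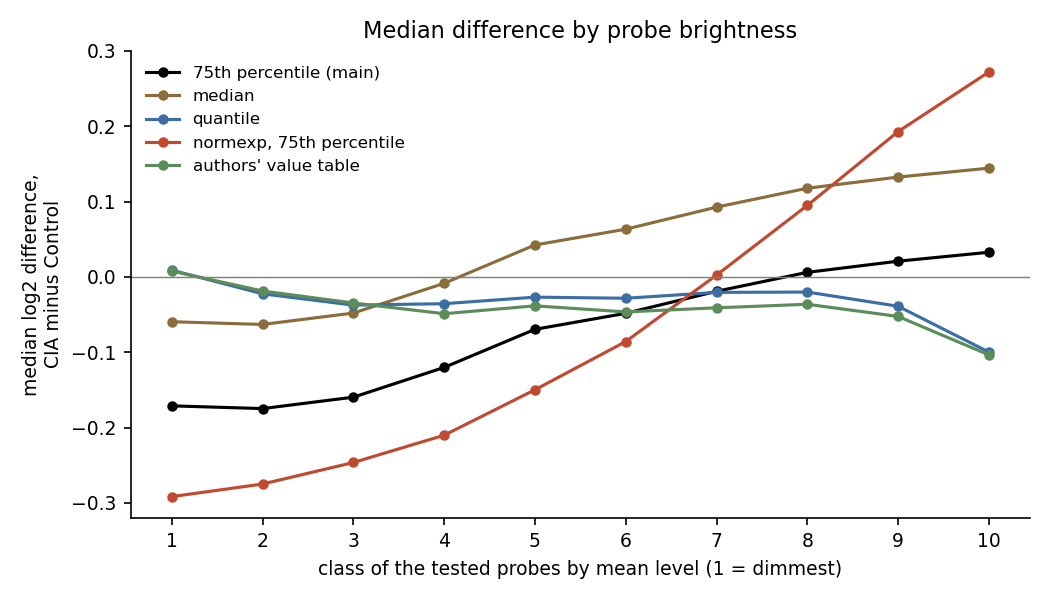
Median log2 difference, CIA minus Control, over the tested probes in 10 classes of mean level, from the dimmest at 1 to the brightest at 10, under 5 ways of scaling. The line for the 75th percentile runs from -0.17 to 0.03, and the line for normexp is the steepest, from -0.29 to 0.27.

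Larger differences went the other way from the count of calls. By the fitted difference, 192 calls were higher by 2-fold or more (0.719% of tested probes) and 142 lower (0.532%), 48 were higher by 4-fold or more (0.18%) and 7 lower (0.0262%), and 12 were higher by 8-fold or more and 0 lower. Some of these fitted sizes rest on signals near background. Among probes well above background on all 8 arrays, 126 were higher and 78 lower by 2-fold or more, 36 higher and 2 lower by 4-fold or more, and 10 higher by 8-fold or more. Of the 192 higher probes, 26 were not well above background in Control, so their fold has only a lower bound, and that bound reached 2-fold for 12 of the 26. It reached 4-fold for 1 of the 8 such probes among the 48. The single such probe among the 12 had a bound of 5.15-fold. The probes of these classes were chosen by their difference, so what follows describes them and gives no test.

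All 48 probes with a fitted rise of at least 4-fold had groups without overlap, and 8 of them were not well above background in Control. Their median level was -1.25, -1.39, -1.29 and -1.39 on Control replicates 1 to 4 and 2.30, 1.17, 1.22 and 1.91 on CIA replicates 1 to 4. Control samples were close together, and within CIA replicate 1 was the highest of the 4 at 40 of the 48 probes and replicate 2 the lowest at 32. By probe names, 38 were of the ASRN6AP series, 5 of ASRN6LNC, 3 of ASRNV and 2 of those numbered like ultraconserved elements. With 1 array left out, 41 to 48 of them stayed called. All 48 stayed higher, as groups without overlap must. Under the normexp correction 37 were called and 45 of the 48 kept their sign.

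Among called probes measured on all 8 arrays and without overlap, the largest rises were those of ASRN6AP1B100071901V3 and uc.183-_P1V3. The largest difference of all tested probes, 4.14, was not called. The first stood between -1.85 and -0.72 in Control and between 2.13 and 3.04 in CIA, a difference of 4.03 ± 0.30, or 16.3-fold (limma adjusted p = 0.00152). The second, numbered like an ultraconserved element, stood between -2.81 and -2.49 in Control and between 0.62 and 1.95 in CIA, a difference of 3.93 ± 0.30, or 15.3-fold (adjusted p = 0.00152). Both moved far beyond the spread in either group and kept the call in all 21 settings run, though normexp brought the sizes down, to 2.64 and 1.81 at the lowest.

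The 7 probes with a fitted fall of at least 4-fold were less even. Control replicate 3 was the highest Control sample at 6 of them, the groups of 2 overlapped, and 2 were well above background on all 8 arrays. With 1 array left out 0 to 6 kept the call, 0 of them without Control replicate 4 and 2 without Control replicate 3 or CIA replicate 3. ASRN6LNC1A100026743V3 stood between 4.42 and 6.59 in Control and between 2.92 and 3.20 in CIA, and fell by 2.33 ± 0.41 on the log2 scale, 5.04-fold (limma adjusted p = 0.0161). Its Control samples spread over more than the CIA samples did, and the call was lost without Control replicate 4 (-2.27, adjusted p = 0.0557). ASRN6AP1B102130295V3 ran from -0.56 to 0.97 in Control and from -2.67 to -0.58 in CIA, so that the groups almost touched. It fell by 2.12 ± 0.50, 4.36-fold (adjusted p = 0.0320), and lost the call without Control replicate 2, 3 or 4 or CIA replicate 2, 3 or 4 (adjusted p 0.0556 to 0.0899).

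**Figure D4:**
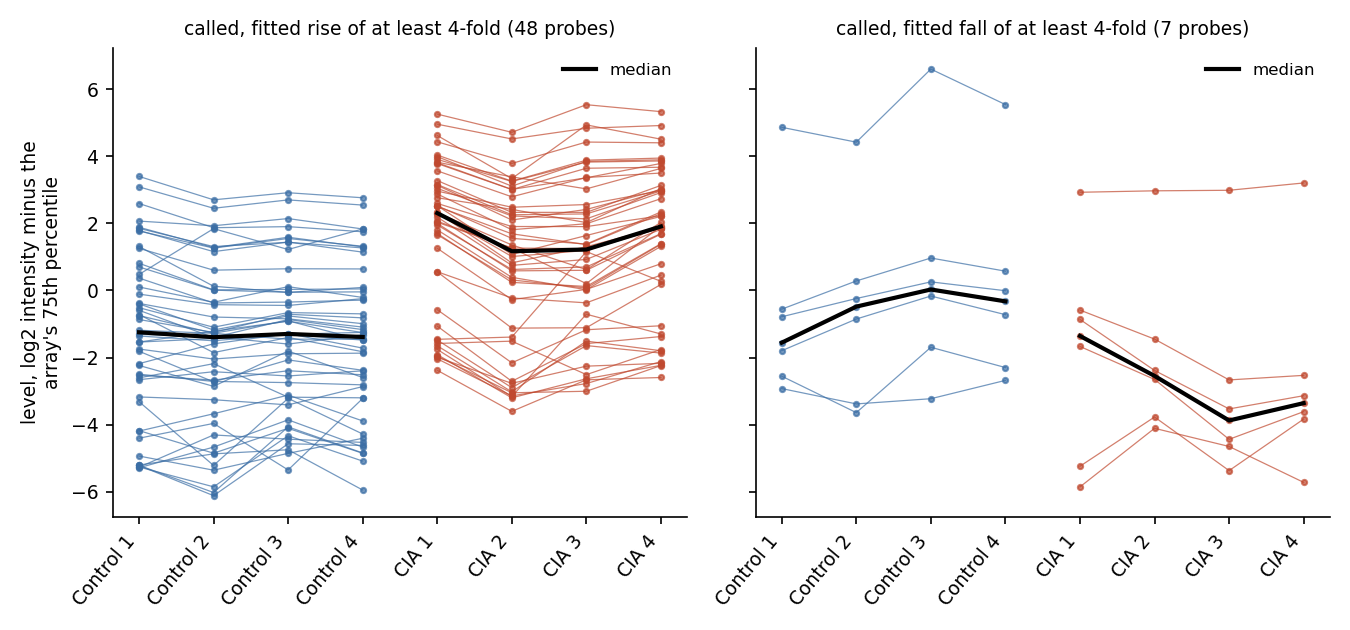
Level of each called probe with a fitted difference of at least 4-fold on each array, 48 higher on the left and 7 lower on the right, as log2 intensity minus the array's 75th percentile. Each thin line joins the 4 values of 1 probe within a group, in no order of time or dose, and the thick line is the median. CIA replicate 1 is the highest CIA sample at 40 of the 48, and Control replicate 3 the highest Control sample at 6 of the 7.

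Many large differences were not called, and at those probes the samples of a group lay far apart. Of 535 probes at least 2-fold higher in CIA by the fit, 343 were not called, with a median SD of 2.01 in CIA and 1.19 in Control, beside 0.42 and 0.28 for the 192 that were. For the 331 of these with a value on every array the median level was 2.54, 0.56, 1.54 and 0.58 on Control replicates 1 to 4 and 4.09, 0.48, 5.97 and 1.94 on CIA replicates 1 to 4. CIA replicates 3 and 1 were far above the other samples, Control replicate 1 was above CIA replicates 2 and 4, and CIA replicate 2 was no higher than the lowest Control sample. At 239 of the 331 probes CIA replicate 3 was the highest of its group and Control replicate 1 the highest of its own. Their median difference of 1.45 was 0.87 without CIA replicate 3, and 134 then remained at 2-fold or more. Of 350 probes at least 2-fold lower by the fit, 208 were not called.

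The same 3 arrays stood apart in a technical reading. The dark-corner control spots, which carry no target, had a mean intensity of 1.84 on Control replicate 1, 1.76 on CIA replicate 1 and 1.79 on CIA replicate 3, and between 1.04 and 1.30 on the other 5 arrays. Without these 3 arrays, a choice made after seeing the data, 23 probes were called, 19 higher and 4 lower, of which 21 were among the 3429, and 17 of the 48 large rises kept the call. In that fit 3 Control and 2 CIA samples remain, and 0 of the 6 named genes were called (Pdk3 0.77, limma adjusted p = 0.0813). What the 3 arrays share with these probes was not tested.

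The number of calls also moved with single arrays. It was 433 without Control replicate 4 (160 higher, 273 lower), 1427 without Control replicate 2, 1423 without Control replicate 3, 1479 without CIA replicate 1 and 1894 without CIA replicate 2. It was 2307, 2382 and 2428 without Control replicate 1, CIA replicate 4 and CIA replicate 3. Lower calls were the larger number in each of these 8 fits.

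**Figure D5:**
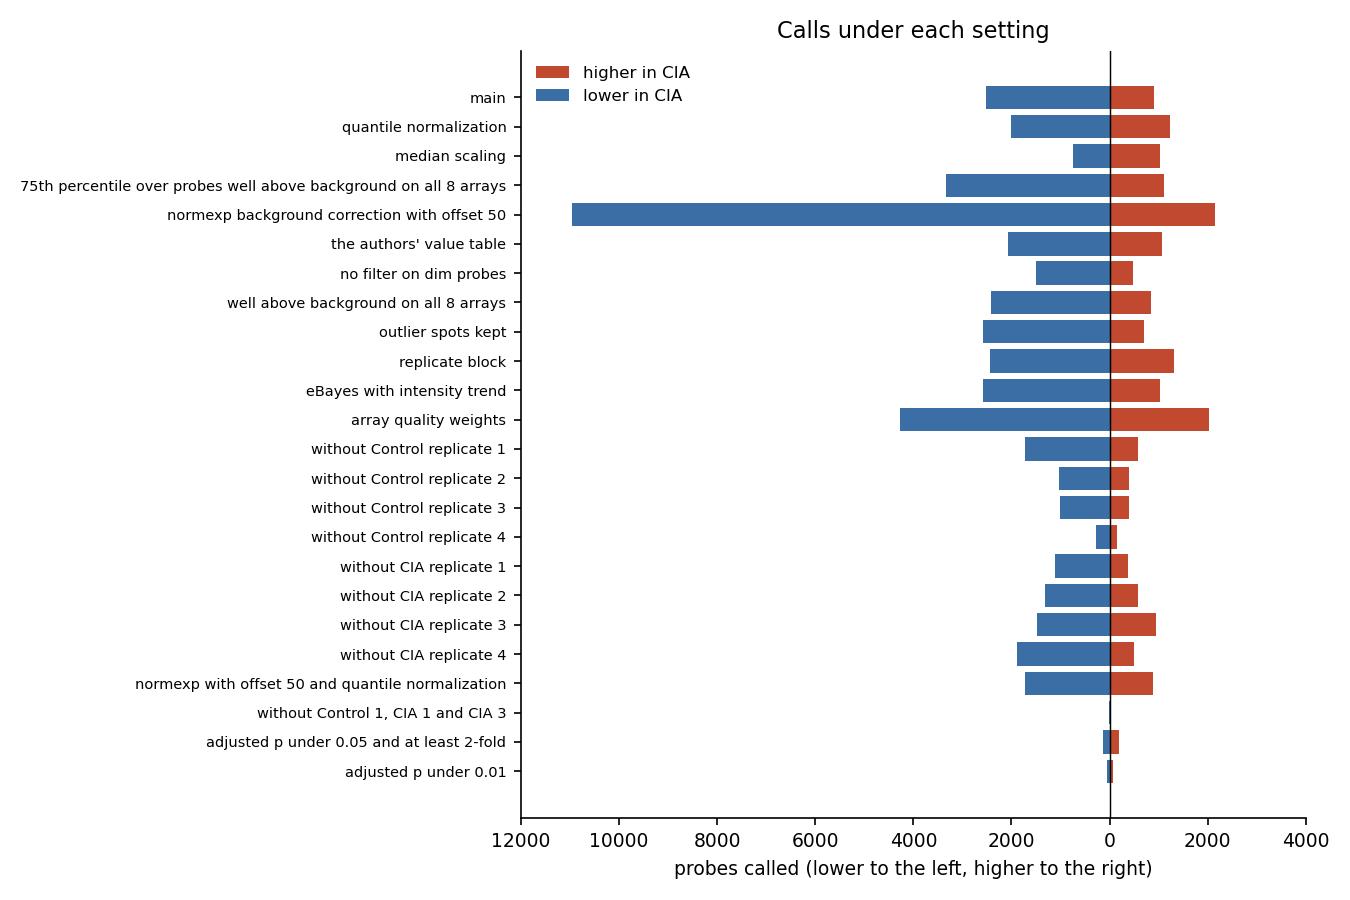
Number of probes called in each setting, lower in CIA to the left and higher to the right. The 75th percentile gives 2515 lower and 914 higher calls, median scaling turns the balance to 738 lower and 1019 higher, and the normexp correction gives 10967 lower calls.

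Detection itself differed in 1 direction. A total of 44 probes were well above background on all 4 CIA arrays and on 0 of the 4 Control arrays, and 0 probes showed the reverse. Of the 44, 29 were called, where 12.8% of all tested probes were. These probes were selected by detection in CIA alone, so neither their share called nor their common direction, higher in CIA, is a test. Their Control level is a limit only, so folds are lower bounds: among the 29 they ran from at least 1.12-fold to at least 5.15-fold higher, with a median of 1.73, and 12 reached 2. A bound sets the CIA mean against the mean, over Control arrays, of the probe's own signal or the dimmest signal that counts as well above background, whichever is higher. The CIA arrays were brighter as a whole, and the part of this in the count was not tested. Without Control replicate 1, whose dark-corner spots read highest, there were 79 probes detected in 1 group, 46 of them in CIA and 33 in Control, and without CIA replicate 3 there were 167, all in CIA.

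The ASRN6AP, ASRN6LNC and ASRNV probes and those numbered like ultraconserved elements were alike in the share called, between 10.5% and 13.4% beside 12.8% for all probes. They were less so in direction. Of the smaller families, the catalogue probes had 31.6% of 19 called, ASSPINKEIN 13.8% of 87 and CUST 13.3% of 15. Of 20147 tested ASRN6AP probes 601 were higher and 1988 lower, with a median difference of -0.07, which became 0.04 with median scaling. The 2627 ASRN6LNC probes had 125 higher and 226 lower calls and a median of -0.03, which was 0.08 with median scaling. Those with ASRNV had 159 higher and 264 lower calls out of 3378, at a median of 0.0015, which became -0.12 under normexp. The 440 probes numbered like ultraconserved elements had 25 higher and 21 lower calls at a median of 0.02, and under normexp 30 higher, 188 lower and -0.14. Higher calls thus made up 23.2% of the calls in ASRN6AP, 35.6% in ASRN6LNC, 37.6% in ASRNV and 54.3% in the probes numbered like ultraconserved elements. With quantile normalization these shares were 33.4%, 47.2%, 53.5% and 73.6%, and under normexp 15.6%, 21.4%, 18.6% and 13.8%. The last family thus went from the highest of these shares to the lowest. The families were not matched for brightness, with which the normexp calls moved. The differences between families were not tested.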

How the data were processed

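Per the file headers and the submitters' processing notes, the authors read the scans with Agilent Feature Extraction 11.0.1.1, and the deposited intensity of a spot is already background-subtracted. The authors' deposited table has log2 values for 38620 probes, those printed in 1 spot, with array medians of 3.75 and correlations of 0.964 to 0.980 with the log2 intensities. Its columns share 1 distribution above a floor, as after quantile normalization, with 5945 to 9669 values of a column at the floor. How they were centred is not given in the sources used here. Groups came from the sample titles.

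Intensities were converted to log2, control spots and spots marked as outliers (0.330% to 1.54% of an array) were left out, the spots of 1 probe were averaged and each array's 75th percentile was subtracted. Probes well above background on all 4 arrays of at least 1 group were tested by limma 3.58.1 (lmFit and eBayes, R 4.3.3, group means, two-sided), and 262 of these 26713 lacked a value on some array and were fitted on the others. No spot was saturated. The number of arrays limits the precision. The fit was tested on simulated data. Every tested probe with a single RefSeq symbol was named, with the 2 largest rises and 2 largest falls among called unnamed probes measured on all 8 arrays without overlap. The members, gene lists and rules were chosen with earlier results of these data known. The normexp alternative took the spots' median signal with the local background median. The 21 alternatives set at the start covered scaling, background, filters, variance models, thresholds and arrays, and 2 were added after seeing the data. The replicate numbers, which are also the positions on the slide, were not used to pair the samples in the main fit. Figures were drawn with matplotlib 3.10.9.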

Additional observations from a re-analysis of the deposited data

Results flagged for a closer look

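In 54 groups of 4 values, made of the levels of the tested genes and printed probes and the measures of the arrays, the highest or lowest value was set against the other 3. Chance alone marks about 1 in 20 such groups, and 4 were marked, all in Control. Trim2 stood at -3.16 on Control replicate 3, where the other Control samples lay between -3.39 and -3.36, close to background. Pop7 stood at -0.87 on the same array, with the others between -0.72 and -0.69. The dark-corner spots had a mean intensity of 1.84 on Control replicate 1, and between 1.04 and 1.05 on the other 3. On Control replicate 1 the 10 spots of catalogue probes had a median SD of 0.157, where the other Control arrays had 0.252 to 0.269.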

How the results depend on the processing

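The count of calls, 3429, stayed within 1.5 times under quantile normalization, the percentile over probes measured on all 8 arrays, the authors' value table, the stricter filter, outlier spots kept, the intensity trend and normexp with quantile normalization. It was 1757 with median scaling, 13126 with normexp, 1983 with no filter, 6302 with array weights, 23 without Control 1, CIA 1 and CIA 3, 334 at 2-fold or more and 116 at an adjusted p under 0.01, and 433 to 2428 with 1 array left out. The share of higher calls, 26.7%, was 38.2% with quantile normalization, 58.0% with median scaling, 25.2% with the percentile over probes measured on all 8 arrays, 16.4% with normexp, 34.2% in the authors' table, 24.1% with no filter, 21.4% with outlier spots kept, 28.7% with the trend, 32.1% with array weights, 33.9% with normexp and quantile normalization, 82.6% without the 3 arrays and 20.5% to 38.7% with 1 array left out. With no filter more probes were tested. The cause of the other moves was not tested. Probes detected in 1 group numbered 52 to 167 with 1 array left out. Under normexp 6 of the 16 genes changed sign: Pdk3 at -0.065, Ptk2b at -0.213, Cyp2e1 at -0.116, Ppp2r2b at -0.210, Trim2 at -0.286 and Fgf2 at -0.164. With the replicate block 3747 probes were called, 34.8% of them higher, and Eif4b (0.0587), Slc28a2 (0.0635) and ASRN6AP1B102130295V3 (0.0753) lost the limma call. Same-numbered samples deviated together at 0.242, 0.681, 0.293 and 0.0986, all positive, while Control replicate 1 correlated best with CIA replicate 3 (0.417). Pairs of unlike number ran from -0.529 (Control replicate 2 with CIA replicate 3) to 0.558 (Control replicate 4 with CIA replicate 2). The replicate number is also the position of the array on its slide, and the part of the position in these correlations was not tested. The main fit did not take the numbers as pairs. The slide as a block was not run, since each slide held 1 group. The lowest signal well above background was 4.33 to 8.28 in Control and 5.69 to 8.35 in CIA, and Eif4b, Ptk2b and Trim2 lay near it.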
